A study of Mus musculus with 2 samples.

Results

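The 7 genes described here belong to cholesterol synthesis and its control, and were measured in megakaryocyte-erythroid progenitors (MEP) of mouse bone marrow. They are Hmgcs1, Idi1, Fdft1, Sqle and Lss, which encode enzymes of the synthesis pathway, and Srebf2 and Insig1, which encode regulators of it. They were taken by name, with no threshold on their values but with earlier results of these data known, and each was found by its gene ID in the tables of both libraries, so that 7 of 42462 matched genes, and 7 of 21474 protein-coding ones, are members. None of the 7 encodes a receptor or carrier that brings cholesterol into the cell. Uptake is therefore described from a separate list of genes.

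Animal cells build cholesterol from acetyl-CoA by way of mevalonate, isoprenoid units, squalene and lanosterol. When sterols in the endoplasmic reticulum are scarce, the protein SCAP escorts the membrane-bound factor SREBP2, the product of Srebf2, to the Golgi, where proteases free its transcription factor part. That part raises the genes of synthesis and uptake. When sterols are plentiful, INSIG proteins hold SCAP back, and the gene Insig1 is itself a target of SREBP factors. Red cells carry much cholesterol in their plasma membrane and, once mature, do not synthesize it.

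The series holds 1 group, MEP of male adult C57BL/6J mice aged 5 to 6 weeks, in 2 libraries numbered as biological replicates 1 and 2. No allele or agent is named in the labels, and nothing was compared with MEP there. After ribosomal RNA depletion, 100 ng of RNA went into each ScriptSeq library. The labels list a size range, without a unit, that starts at 200 in replicate 1 and 215 in replicate 2 and ends at 1000 in both. The libraries have separate biosample entries but 1 donor entry, and nothing says that separate mice gave the cells, so the spread between them may be partly technical. With 1 library on each side no test was made, and a sign test on 2 libraries could not go below a p of 0.5.

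Library totals were 39919884 expected counts in replicate 1 and 48043010 in replicate 2. The label of the cells was checked against lineage markers. All 7 erythroid markers were detected in both libraries (at a TPM of 1 or more, TPM being transcripts per length over a fixed library total), with a summed level of 1387.9 TPM in replicate 1 and 1359.25 TPM in replicate 2. Megakaryocyte markers summed to 45.8 TPM in replicate 1 and 18.4 TPM in replicate 2, and stem cell markers to 74.4 and 17.7 TPM, with Ly6a at 0 counts in both. Granulocyte and monocyte markers summed to 67.8 TPM in replicate 1 and 114.9 TPM in replicate 2, and lymphoid markers to 7.01 and 14.1 TPM, with Cd3e at 0 counts in both. The lymphoid marker Gzma had 0 counts in replicate 1, against 792 in the other library. Macrophage markers summed to 0.90 and 1.40 TPM, with Adgre1 and C1qa at 0 counts. In bulk RNA, fewer cells of a type and less RNA per cell cannot be told apart.

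The DNA just before 4 of the genes is shown because these genes are known to answer to SREBP factors, which act on promoters together with partners that bind CCAAT and GC-rich boxes. The sequences are from RefSeq (GRCm38.p6, the assembly of mm10), run 5′ to 3′ on the plus strand, and stop before the first annotated exon. Capitals mark every match, on either strand, to CCAAT (read as ATTGG on the other strand), to the sterol element letters TCACNCCAC and to the E-box CACGTG.
Hmgcs1 (chr13:119690101-119690350): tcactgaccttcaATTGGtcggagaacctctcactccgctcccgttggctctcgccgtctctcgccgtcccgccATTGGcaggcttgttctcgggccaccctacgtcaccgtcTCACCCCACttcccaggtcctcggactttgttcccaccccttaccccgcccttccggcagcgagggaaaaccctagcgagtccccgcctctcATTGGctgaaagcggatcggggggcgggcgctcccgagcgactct
Insig1 (chr5:28071162-28071362): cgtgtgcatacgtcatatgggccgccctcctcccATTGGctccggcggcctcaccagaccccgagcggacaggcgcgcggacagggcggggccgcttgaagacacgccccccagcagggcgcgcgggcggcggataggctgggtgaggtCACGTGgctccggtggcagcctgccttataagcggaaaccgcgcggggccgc
Lss (chr10:76531355-76531587): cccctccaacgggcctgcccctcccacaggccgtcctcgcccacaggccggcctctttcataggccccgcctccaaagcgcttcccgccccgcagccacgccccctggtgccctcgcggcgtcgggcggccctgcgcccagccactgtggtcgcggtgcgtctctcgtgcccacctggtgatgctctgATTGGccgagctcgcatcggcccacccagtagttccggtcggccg
Srebf2 (chr15:82147019-82147180): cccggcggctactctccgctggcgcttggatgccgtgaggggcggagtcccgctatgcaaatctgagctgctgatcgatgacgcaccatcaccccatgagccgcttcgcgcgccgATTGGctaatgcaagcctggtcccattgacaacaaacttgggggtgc
Hmgcs1 shows 3 CCAAT matches and, 137 bases before its RefSeq start, the letters TCACCCCAC. Insig1 shows 1 CCAAT and a CACGTG at 101 bases before its start, and Lss and Srebf2 show 1 CCAAT each.

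Over windows from 250 bases before to 50 bases after the RefSeq start, on both strands, 5 of 5 member genes with an entry held CCAAT, against 37.4% of 32851 promoters of that length. GGGCGG, the GC box, was likewise in 5 of 5, against 35.7% of all promoters. TCACNCCAC was in 1 of 5 (Hmgcs1), against 1.24% of all promoters, and CACGTG in 1 of 5 (Insig1), against 7.15%. Among the other sterol enzymes, 12 of 13 genes with an entry held CCAAT, 12 held GGGCGG, 3 held CACGTG and 0 held TCACNCCAC. Those 13 genes have 16 promoters, and a gene with several has more chances of a match. Per promoter, as in the shares above, CCAAT was in 12 of 16, GGGCGG in 13, CACGTG in 3 and TCACNCCAC in 0. No match of any of these motifs in the members overlapped one of another. These are letters in a reference sequence, and a missing match says only that the letters are not in this window.

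All 7 genes were detected in both libraries, as were 39.4% of protein-coding genes. Their levels are given as TPM, which is per length and so can be compared between genes of a library. Idi1 stood alone at the top, Sqle, Insig1 and Hmgcs1 formed a middle group, and Srebf2, Lss and Fdft1 were lowest. The 7 mean levels had a median of 6.06 TPM, against 7.40 TPM over the 9046 protein-coding genes whose mean level was 1 TPM or more. Expected counts behind each level ran from 621.94 to 4889.43.

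**Figure D1:**
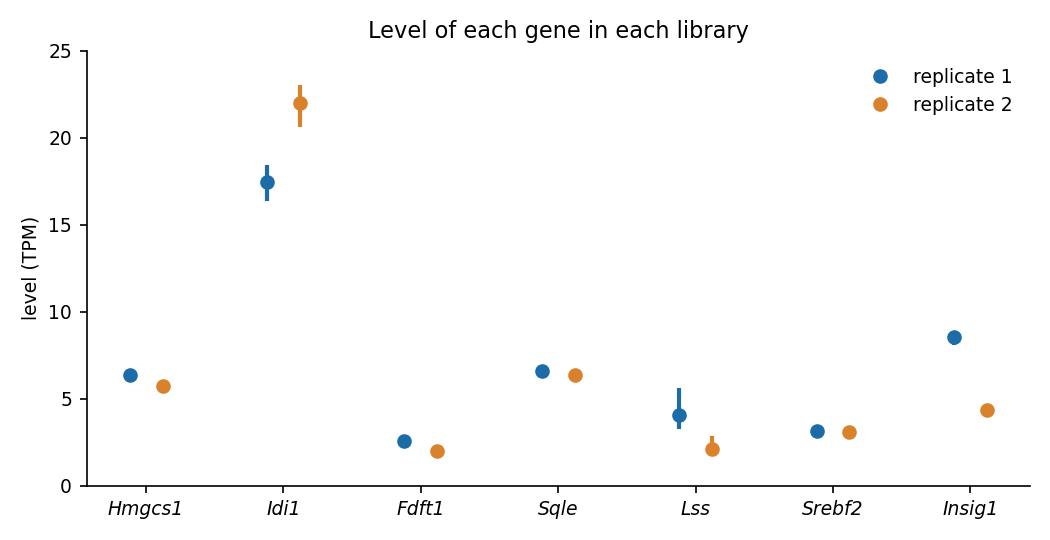
Level in TPM (vertical axis) of the 7 genes in replicate 1 (left point of each pair) and replicate 2 (right point), with the deposited interval of each value as a line. Idi1 lies above the other 6 in both libraries, and Insig1 and Lss show the widest gaps between libraries relative to their levels.

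Hmgcs1 (ENSMUSG00000093930.1, mm10 chr13:119690379-119708260, plus strand) encodes the cytosolic enzyme that joins acetoacetyl-CoA and acetyl-CoA to HMG-CoA. Its level was 6.38 TPM (deposited interval 6.01 to 6.59, level of the interval not stated) in replicate 1 and 5.75 TPM (5.47 to 5.93) in replicate 2, from 1753 and 2324 expected counts. The mean was 6.06 ± 0.45 TPM (SD, n = 2), above 39.7% of the 8465 protein-coding genes detected in both libraries. The intervals of the libraries lay apart.

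Idi1 (ENSMUSG00000058258.10, chr13:8885501-8892451, plus strand) encodes isopentenyl diphosphate isomerase, which turns one isoprenoid unit into its partner for chain building. It had 17.5 TPM (16.3 to 18.4) in replicate 1 and 22.0 TPM (20.6 to 23.0) in replicate 2, a mean of 19.7 ± 3.20 TPM (SD, n = 2). It was the only one of the 7 with a lower TPM in replicate 1. Its mean exceeded that of 76.5% of detected protein-coding genes.

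Fdft1 (ENSMUSG00000021273.9, chr14:63145150-63179578, minus strand) encodes squalene synthase, the first enzyme committed to sterols. It had the lowest mean of the 7 per gene, at 2.58 TPM (2.36 to 2.76) in replicate 1 and 2.00 TPM (1.84 to 2.13) in replicate 2, from 621.94 and 709 expected counts. It overlaps the lysosomal protease gene Ctsb on the other strand, which had 3567 counts in replicate 1 and 5856 in replicate 2. The sources do not say whether strand was used in counting, so reads of the shared stretch may have gone to either gene. Hmgcs1, Idi1 and Lss also overlap 1 gene each on the other strand. That at Lss had 0 counts in both libraries, and those at Hmgcs1 and Idi1 have no values in the deposited data.

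Sqle (ENSMUSG00000022351.10, chr15:59315077-59331192, plus strand) encodes squalene epoxidase, which adds the first oxygen to squalene. Its level was 6.58 TPM (6.19 to 6.85) in replicate 1 and 6.36 TPM (6.03 to 6.60) in replicate 2, with overlapping intervals. Lss (ENSMUSG00000033105.8, chr10:76531588-76557138, plus strand) encodes lanosterol synthase, which closes the sterol rings. It had 4.07 TPM (3.26 to 5.64) in replicate 1 and 2.12 TPM (1.77 to 2.83) in replicate 2, a mean of 3.10 ± 1.38 TPM (SD, n = 2). Its intervals were the widest of the 7 relative to their values, and those of the libraries lay apart.

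Srebf2 (ENSMUSG00000022463.7, chr15:82147181-82205379, plus strand) was at 3.13 TPM (2.92 to 3.25) in replicate 1 and 3.07 TPM (2.91 to 3.18) in replicate 2. The microRNA gene Mir33 lies inside it on the same strand and was listed at 0 counts in both libraries. Gm49502 also overlaps Srebf2 on the same strand and has no values in the deposited data, so its reads, if any, may have gone to Srebf2. Insig1 (ENSMUSG00000045294.10, chr5:28071363-28078662, plus strand) was at 8.57 TPM (8.09 to 8.84) in replicate 1 and 4.35 TPM (4.08 to 4.53) in replicate 2, from 1935 and 1444 expected counts. Its mean was 6.46 ± 2.98 TPM (SD, n = 2).

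Of the 6 steps down the order of mean TPM, 2 held in both libraries with intervals apart. Idi1 had 2.66 times the TPM of Sqle in replicate 1 and 3.46 times in replicate 2. The step was smaller on complete coding transcripts, with Idi1 at 14.2 and 11.0 TPM in replicates 1 and 2, against 6.27 and 5.98 TPM for Sqle. Hmgcs1 had 2.04 times the TPM of Srebf2 in replicate 1 and 1.87 times in replicate 2. Sqle and Insig1, Insig1 and Hmgcs1, and Srebf2 and Lss each changed places between the libraries. Lss exceeded Fdft1 by 1.58 times in replicate 1 with intervals apart, and by 1.06 times in replicate 2 with intervals overlapping. On complete coding transcripts that order turned, with Lss at 1.45 TPM in both libraries, against 2.58 and 2.00 TPM for Fdft1.

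The difference between the libraries was read after scaling, because TPM runs over all rows. Nuclear protein-coding genes, globins left out, held 25.5% of it in replicate 1 and 20.6% in replicate 2. On log2((TPM + 1) of replicate 1 over replicate 2) the median of those 9046 genes stood at 0.27, and it stood at -0.01 with counts scaled by TMM (trimmed mean of M values), as CPM (counts over a fixed library total) + 1. On the TPM scale 6 of 7 members were higher in replicate 1, against 73% of the 9046 genes. On the TMM scale 3 of 7 were, against 48.5%.

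Insig1 and Lss stood on one side of that comparison, and the other 5 lay close together. Insig1 had 47.8 CPM in replicate 1 and 30.7 in replicate 2, a log2 ratio of 0.62 on the TMM scale. Lss had 34.5 CPM in replicate 1 and 22.1 in replicate 2, also a log2 ratio of 0.62. Fdft1 was at 0.03, and Idi1, Hmgcs1, Sqle and Srebf2 ran from -0.15 down to -0.31. Summed over the 7, the libraries had 305.4 CPM in replicate 1 and 305.8 in replicate 2.

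The gap of Insig1 and Lss did not reach the 2-fold taken as a difference between libraries. Of the 7, 4 (Idi1, Sqle, Insig1 and Hmgcs1) had the mean TPM of at least 5 and the 20 counts needed for that call, and 0 of the 4 passed 2-fold under TPM, posterior mean TPM, rescaled TPM, TMM or DESeq2 scaling. Among all protein-coding genes so filtered, 5.79% passed it on TPM, 5.47% on posterior mean TPM, 5.35% on rescaled TPM, 2.85% on TMM and 3.31% on DESeq2 scaling. Without the filter 0 of 7 passed. The deposited TPM intervals of the libraries lay apart for 5 of 7 members, against 76.8% of the 9046 genes, so intervals apart were the common case here.

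**Figure D2:**
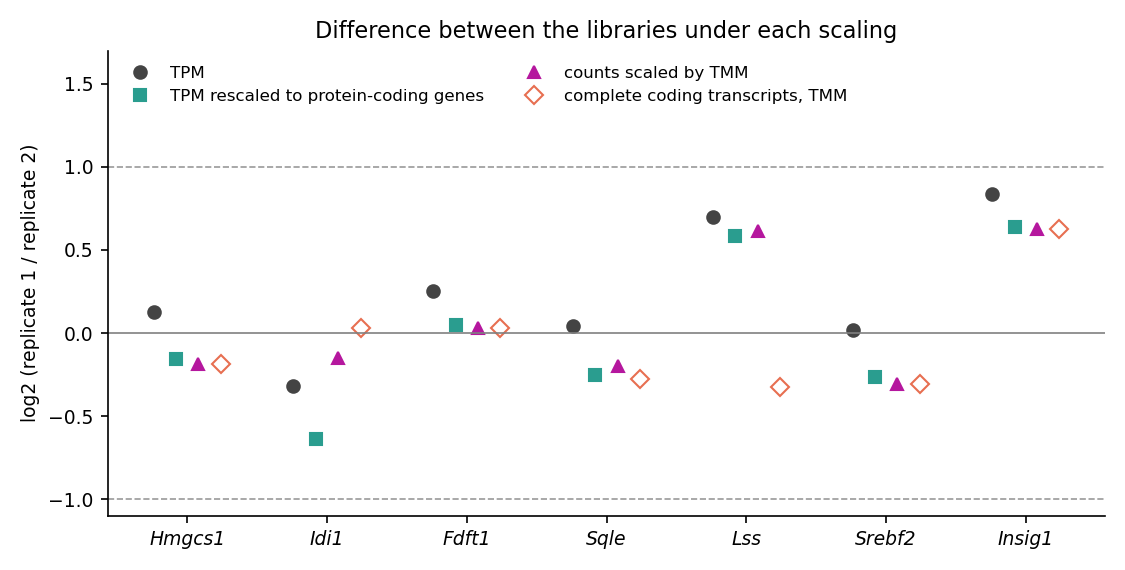
Log2 ratio of replicate 1 over replicate 2 (vertical axis, dashed lines at 2-fold) for the 7 genes on TPM, on TPM rescaled to protein-coding genes, on counts scaled by TMM, and on counts of complete coding transcripts scaled by TMM. Insig1 stays at 0.62 or above in all 4, whereas Lss goes to -0.32 when only its complete coding transcript is counted.

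Cell type markers differed between the libraries as well. On the TMM scale all 3 stem cell markers with counts were past 2-fold higher in replicate 1, among them Cd34 with 18.3 TPM in replicate 1 and 1.44 TPM in replicate 2. Of the 4 megakaryocyte markers whose mean level was 1 TPM or more, 2 were lower in replicate 1, 1 of them past 2-fold on the TMM scale. The other 2, Itga2b and Pf4, were past 2-fold higher in replicate 1 on that scale. They had 19.6 and 23.5 TPM there, against 5.70 and 8.71 TPM in replicate 2. All 7 erythroid markers were lower in replicate 1 on that scale, with a median log2 ratio of -0.43, whereas on TPM 3 were higher and 4 lower. Of the granulocyte and monocyte markers, S100a8 and S100a9 had TMM log2 ratios of -1.40 and -1.21, and Mpo one of 1.82. The part of these markers in the values of Insig1 and Lss was not tested.

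Transcript values set Lss and Insig1 apart from each other. Insig1, Hmgcs1, Fdft1 and Srebf2 each have 1 annotated transcript in the deposited tables, so their gene values are transcript values. Lss has 8, and Lss-201, its only complete coding one, was at 1.45 TPM (1.23 to 1.60) in replicate 1 and at 1.45 TPM (1.33 to 1.55) in replicate 2. It took 35.6% of the gene's TPM in replicate 1 and 68.5% in replicate 2. The gap of the gene thus lay in transcripts annotated as non-coding, which summed to 2.61 TPM in replicate 1 and 0.67 TPM in replicate 2, or 808.25 and 175.3 expected counts.

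Of those transcripts the highest in replicate 1 were Lss-202 and Lss-204. Lss-204, which keeps introns, had 0.87 TPM (0.76 to 0.97) from 539.62 counts in replicate 1, against 0.18 TPM (0.13 to 0.22) from 161.99 counts in replicate 2. Lss-202, of 352 bases, had 1.07 TPM in replicate 1 from 13.2 counts, with an interval of 0.0002 to 2.23 TPM, and 0 counts in replicate 2. A short transcript with few counts therefore made up 26.2% of the gene's TPM in replicate 1. With complete coding transcripts alone the log2 ratio of Lss was 0.00 on TPM and -0.32 on the TMM scale, where Insig1 was at 0.62.

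Idi1 behaved the other way round. Its complete coding transcript Idi1-201 had 14.2 TPM (13.5 to 14.5) in replicate 1 and 11.0 TPM (10.5 to 11.2) in replicate 2, higher in replicate 1, although the gene was lower there. Idi1-203, a coding transcript of 737 bases whose start is not annotated, had 2.48 TPM (1.48 to 3.48) in replicate 1 and 10.3 TPM (8.91 to 11.4) in replicate 2. It had 116.29 counts in replicate 1 and 708.6 in replicate 2, a small part of the gene's 3781.69 and 4889.43, and 14.2% and 46.9% of its TPM. On complete coding transcripts scaled by TMM, Idi1 had a log2 ratio of 0.03.

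Sqle has a pair of complete coding transcripts with nearly the same span. Sqle-202 had 5.31 TPM in replicate 1 and 3.84 TPM in replicate 2, and Sqle-201 had 0.96 and 2.14 TPM. Their sum was 6.27 TPM in replicate 1 and 5.98 TPM in replicate 2. The leading transcript was the same in both libraries for 3 of the 3 members with several, against 71.1% of 6760 protein-coding genes. The largest shift of a transcript's share between libraries was 32.9 points in Lss, 32.7 in Idi1 and 20.3 in Sqle, against a median of 18.0 points over those genes.

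**Figure D3:**
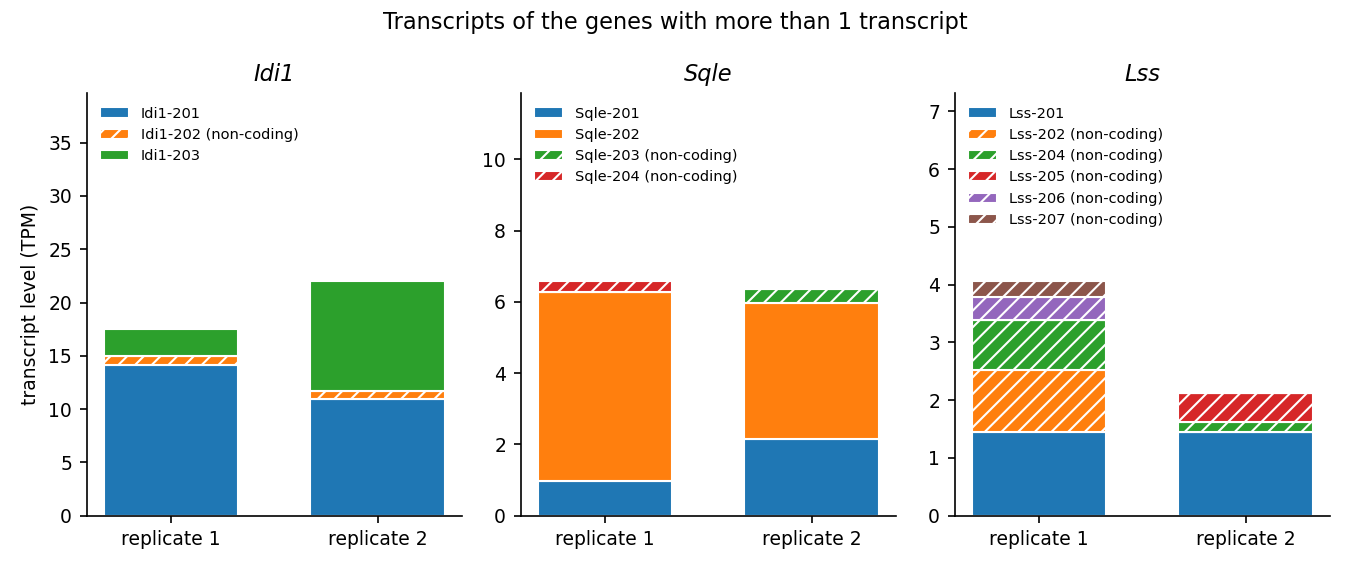
Stacked TPM (vertical axis, a separate scale for each gene) of the transcripts of Idi1, Sqle and Lss in replicate 1 (left bar) and replicate 2 (right bar), with transcripts annotated as non-coding hatched. Lss-201 has the same height in both bars, and the hatched part of Lss is 2.61 TPM high in replicate 1 and 0.67 TPM high in replicate 2.

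Of the members, 3 are set here beside a close paralog. Idi1 exceeded Idi2, a second isomerase gene, by at least 1080.1-fold in replicate 1, where Idi2 had 0 counts and was set at a floor of 3 counts in that library. In replicate 2, Idi1 had 22.0 TPM against 0.31 TPM from 85 counts for Idi2, 71.0-fold, or 35.4-fold on complete coding transcripts.

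The regulators stood otherwise to their paralogs. Srebf2 had 3.13 TPM in replicate 1 and 3.07 TPM in replicate 2, below Srebf1, whose SREBP1 products are known chiefly for fatty acid synthesis, at 8.50 TPM (replicate 1) and 17.4 TPM (replicate 2). Srebf1 was thus 2.72 times as high in replicate 1 and 5.65 times in replicate 2, with intervals apart in both. Transcripts annotated as non-coding made up 47.9% of the Srebf1 TPM in replicate 1 and 59.97% in replicate 2. On complete coding transcripts alone, Srebf1 was at 4.42 TPM (3.95 to 4.49) in replicate 1 and 6.82 TPM (6.29 to 6.90) in replicate 2, 1.41 and 2.22 times Srebf2. The order Srebf1 above Srebf2 held in both libraries on either count of transcripts.

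Insig1 against Insig2 depended on the transcripts counted. Per gene, Insig1 was 2.96 times as high as Insig2 in replicate 1, with 8.57 against 2.90 TPM, and level with it in replicate 2, with 4.35 against 4.39 TPM and overlapping intervals. In replicate 2, a single Insig2 transcript of 478 bases, annotated without its end, supplied 79.2% of the Insig2 TPM from 118.41 counts. With complete coding transcripts, Insig1 was 4.42 times as high as Insig2 in replicate 1 and 4.78 times in replicate 2. The choice of complete transcripts was made after these values were seen.

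**Figure D4:**
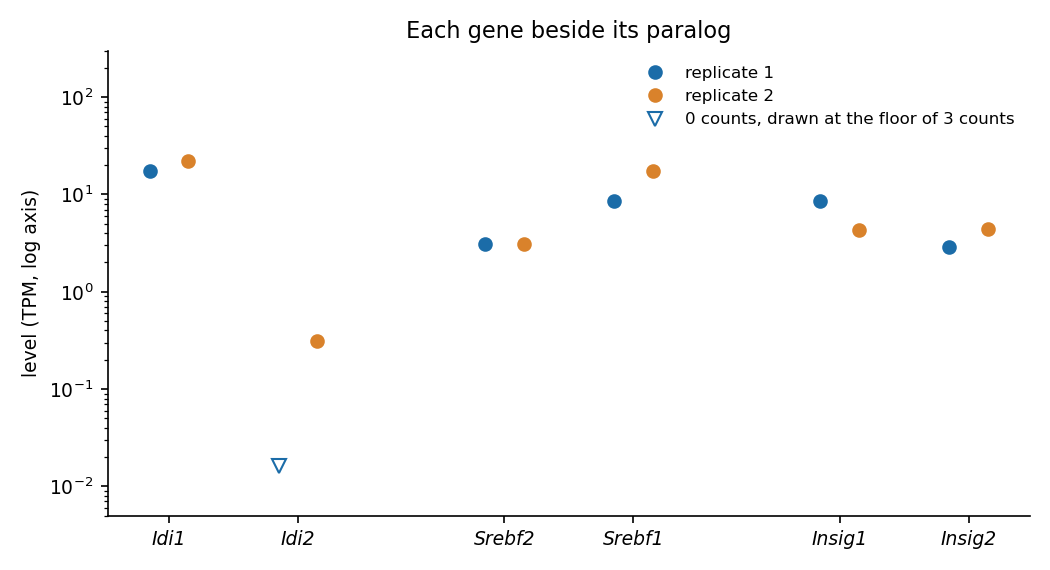
Level in TPM (vertical log axis) of each of 3 genes beside its paralog in replicate 1 (left point) and replicate 2 (right point), with the open triangle at the floor of 3 counts for Idi2 in replicate 1. Idi1 lies above Idi2 in both libraries, Srebf2 lies below Srebf1 in both, and Insig1 and Insig2 are level in replicate 2.

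Beside the 5 enzymes among the members, 14 further enzymes of the pathway were listed. Of these, 12 were detected in both libraries, against 39.4% of all protein-coding genes. The median of the 14 was 5.37 TPM. Neither this list nor those that follow hold every gene of their process. Of the early steps, Acat2, which makes acetoacetyl-CoA, had 5.04 TPM in replicate 1 and 4.16 TPM in replicate 2. The mevalonate kinases differed, with Mvk at 1.96 TPM in replicate 1 and 1.37 TPM in replicate 2, and Pmvk at 7.54 and 7.22 TPM. Mvd, the mevalonate diphosphate decarboxylase between Pmvk and Idi1, was the lowest of the 14, at 0.49 TPM from 69 counts in replicate 1 and 0.03 TPM from 7 counts in replicate 2.

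Levels along the pathway were uneven, with Idi1 next to low and high neighbours. Fdps, which builds farnesyl diphosphate from the units that Idi1 interconverts, had 26.8 TPM in replicate 1 and 25.5 TPM in replicate 2. The next gene listed, Fdft1, had 2.58 and 2.00 TPM. Farnesyl diphosphate also feeds branches that make dolichol, ubiquinone and protein prenyl groups. All 11 genes listed for these branches were detected in both libraries, against 39.4% of all protein-coding genes, with a median of 6.63 TPM. Among them Rabggtb, a subunit of Rab geranylgeranyl transferase, had 54.4 TPM in replicate 1 and 50.6 TPM in replicate 2, and Fnta, a subunit shared by farnesyl and geranylgeranyl transferases, had 22.6 and 14.2 TPM.

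After lanosterol, which Lss makes, the next enzymes were Cyp51, at 7.02 TPM in replicate 1 and 3.75 TPM in replicate 2, and a pair of sterol reductases of unequal level. Tm7sf2 had 1.37 TPM in replicate 1 and 1.09 TPM in replicate 2, whereas Lbr, the lamin B receptor, which has the same reductase activity and also ties chromatin to the nuclear envelope, had 45.1 and 30.1 TPM. Their TMM log2 ratios were -0.79 (Tm7sf2) and -0.07 (Lbr). Msmo1, which takes part in demethylation, had 18.5 TPM in replicate 1 and 10.5 TPM in replicate 2, and its TMM log2 ratio was 0.02. Nsdhl, which works with it, had 5.94 TPM in replicate 1 and 4.77 TPM in replicate 2.

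Hsd17b7, a later enzyme of the pathway, differed between the libraries by more than 2-fold. It had 2.04 TPM from 649 counts in replicate 1 and 0.22 TPM from 132 counts in replicate 2, a TMM log2 ratio of 2.16. Its mean of 1.13 TPM lay below the 5 TPM needed for the 2-fold call used above. On the TMM scale 325 of the 9046 genes were past 2-fold higher in replicate 1, and 258 past 2-fold lower. Of the last steps, Ebp had 12.4 TPM in replicate 1 and 12.7 TPM in replicate 2, and Sc5d had 6.59 and 4.24 TPM. Dhcr7, a reductase that finishes cholesterol, was lower, at 1.67 TPM in replicate 1 and 2.02 TPM in replicate 2. Of the 13 enzymes whose mean level was 1 TPM or more, 6 had a TMM log2 ratio above 0 and 7 one below it, with a median of -0.02, whereas on TPM 11 were higher in replicate 1 and 2 lower. Over the 9046 genes, 48.5% were higher in replicate 1 on the TMM scale and 73% on TPM.

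**Figure D5:**
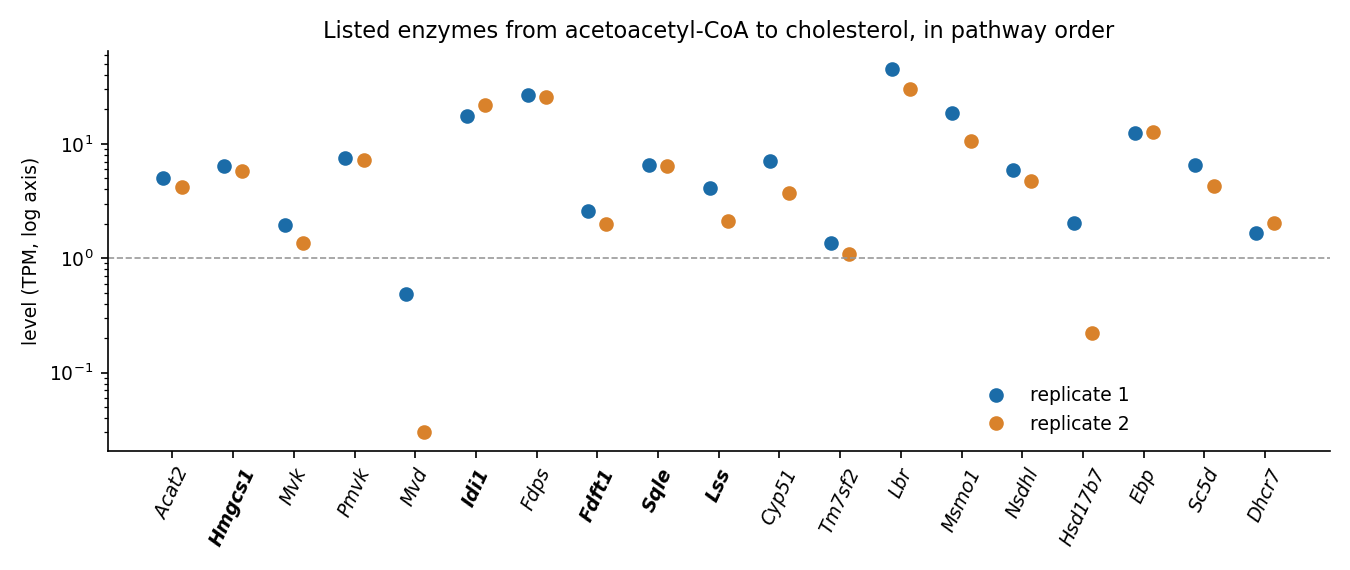
Level in TPM (vertical log axis, dashed line at 1) of 19 listed enzymes from acetoacetyl-CoA to cholesterol in pathway order, in replicate 1 (left point) and replicate 2 (right point), with the members in bold. Lbr, Fdps and Idi1 have the 3 highest means, Mvd lies below 1 TPM in both libraries and Hsd17b7 in replicate 2.

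All 10 genes listed for the control of SREBP and of sterol sensing were detected in both libraries, against 39.4% of all protein-coding genes. Their median was 5.20 TPM. Scap, whose product carries SREBP2 to the Golgi, had 3.32 TPM in replicate 1 and 4.78 TPM in replicate 2, beside 3.13 and 3.07 TPM for Srebf2 itself. The Golgi proteases that cut SREBP were Mbtps1, at 6.54 TPM in replicate 1 and 5.85 TPM in replicate 2, and Mbtps2, at 3.10 and 2.08 TPM. Rnf139, a ubiquitin ligase of the endoplasmic reticulum, had 12.8 TPM in replicate 1 and 9.65 TPM in replicate 2. On the TMM scale 2 of the 10 were higher in replicate 1 and 8 lower, with a median log2 ratio of -0.19, whereas on TPM 7 were higher and 3 lower. Over the 9046 genes, 48.5% were higher in replicate 1 on the TMM scale and 73% on TPM. Srebf1 was at -1.05 on the TMM scale and Scap at -0.84. Insig1, which acts on Scap, was at 0.62.

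For uptake and transport, 13 of 15 listed genes were detected in both libraries, against 39.4% of all protein-coding genes. The median of the 15 was 3.83 TPM. Lrpap1, a chaperone of lipoprotein receptors, had 14.6 TPM in replicate 1 and 12.7 TPM in replicate 2. Scarb1, the receptor for high density lipoprotein, had 7.93 TPM in replicate 1 and 12.1 TPM in replicate 2, a TMM log2 ratio of -0.91. The receptor genes Lrp1 and Vldlr were near 0, with 9 and 106 counts in replicate 1, against 0 and 1 in replicate 2. Lrp8, a receptor of the same family, was detected, at 1.49 TPM in replicate 1 and 1.06 TPM in replicate 2. Npc2, which moves cholesterol out of lysosomes, had 10.2 TPM in replicate 1 and 7.32 TPM in replicate 2, and Stard4, a sterol carrier, had 6.38 and 2.84 TPM. The counts of Stard4 were however 1584 in replicate 1 and 1630 in replicate 2, a TMM log2 ratio of 0.17.

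Of the storage and efflux genes, 5 of 11 were detected in both libraries, or 7 of 11 at 10 expected counts, with a median of 1.22 TPM. The share of all protein-coding genes detected was 39.4%. The cholesterol esterifying enzymes were Soat1, at 1.59 TPM in replicate 1 and 0.29 TPM in replicate 2, and Soat2, at 2.97 and 1.92 TPM. Soat1 had only 156 counts in replicate 1 and 107 in replicate 2, a TMM log2 ratio of 0.57. The export pumps were Abca1, at 1.52 TPM in replicate 1 and 0.92 TPM in replicate 2, and Abcg1, at 3.56 and 1.62 TPM. Of the sterol-sensing LXR receptors, Nr1h2 had 14.96 TPM in replicate 1 and 6.34 TPM in replicate 2, but 834 and 1161 counts and a TMM log2 ratio of -0.25. Nr1h3 had 0 counts in both. On the TMM scale 5 of the 6 storage and efflux genes whose mean level was 1 TPM or more were higher in replicate 1, against 48.5% of the 9046 genes, with a median log2 ratio of 0.55 and Nr1h2 as the exception. The 3 stem cell markers with counts were higher there too, with a median of 1.53, and their part in these values was not tested.

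The supply of acetyl-CoA and its other use, fatty acid synthesis, was detected for 9 of 11 listed genes in both libraries. The share of all protein-coding genes so detected was 39.4%, and the median of the 11 was 5.65 TPM. Acly, which makes cytosolic acetyl-CoA from citrate, had 24.4 TPM in replicate 1 and 23.9 TPM in replicate 2, well above Hmgcs1, which draws on it. Fasn, fatty acid synthase, had 5.56 TPM in replicate 1 and 5.52 TPM in replicate 2, beside 6.38 and 5.75 TPM for Hmgcs1. Only 2 of the listed desaturases are given here, and they do not stand for the others. Scd2 had 24.2 TPM in replicate 1 and 15.5 TPM in replicate 2, and Scd1 had 1.16 and 2.07 TPM. Me1, which makes NADPH for lipid synthesis, had 0 counts in both libraries.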

How the data were processed

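Total RNA of MEP was measured in 2 libraries. The deposited tables give, per gene and per transcript, an expected count, a TPM, an FPKM (not used for levels here), a posterior mean TPM and an interval of the TPM, per the file headers. Transcript shares of a gene are percent values deposited by the authors. Reads were assigned on mm10 with GENCODE M4, per the text files deposited with the tables, and the program that estimated the counts was, for these tables, not given in the sources used here.

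Symbols, classes and coordinates came from GENCODE M21, matched by ID for 42462 of 43346 Ensembl rows. The other 26248 numbered and 97 spike-in rows were not used. Expected counts were rounded to whole numbers, for genes with at least 10 in both libraries, for scaling with edgeR 4.0.16 (TMM) and DESeq2 1.42.0. Both ran in R 4.3.3, and the rest in Python 3.11.15 with pandas 2.3.3, numpy 2.4.6 and matplotlib 3.10.9. The ratio calculation was tested on simulated data. TPM was also rescaled over nuclear protein-coding genes, globins left out. Without molecular identifiers, floors (3 counts) cover counting error only. Members and lists were chosen with earlier results of these data known. Named genes are the members, paralogs, the other sterol enzymes, the 4 highest of each other list and the 3 highest of each marker class. Only part of these is given, some genes are not reported here, and Scap, Mbtps2, Lrp1, Vldlr, Lrp8, Stard4, Soat1, Soat2, Abca1, Nr1h3, Fasn, Scd1, Me1, Ly6a, Cd3e, Mpo, Mir33 and Ctsb were named after their values were seen.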

Additional observations from a re-analysis of the deposited data

How the results depend on the processing

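No paired analysis was possible because the series has 1 group. The median level of the 7 genes, 6.06 TPM, became 26.5 on TPM rescaled to protein-coding genes, and ran from 4.35 to 6.38 TPM with 1 library left out. The median of their log2 ratios (replicate 1 over replicate 2) was 0.13 on TPM, -0.16 rescaled, -0.15 with TMM and with DESeq2, 0.059 with protein-coding transcripts only, and -0.18 with complete coding transcripts and TMM. Mean log2 ratios to paralogs moved to 4.17 from 8.11 (Idi1 over Idi2) with a pseudocount of 1, and on complete coding transcripts to -0.82 from -1.97 (Srebf2 over Srebf1) and to 2.20 from 0.78 (Insig1 over Insig2). With 1 library left out, Insig1 over Insig2 was 1.56 or -0.01. The number of members detected, 7, and the number past 2-fold, 0, held under every alternative run. The transcript alternatives were chosen after seeing the data. Genes with few counts, such as Idi2 and Mvd, are limited by depth.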
